A study of Mus musculus with 6 samples.

Results

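The cytosolic ribosome reads messenger RNA into protein, and each particle holds a single copy of most of its proteins. The small subunit binds the messenger and checks the codon, and the large subunit joins the amino acids and carries the acidic stalk that recruits elongation factors. Many of these genes are transcribed at a high rate in liver, and their messengers carry a pyrimidine-rich start, the TOP motif, through which mTOR signalling and the RNA-binding protein Larp1 control their translation as a set. The genes described here were chosen by symbol alone (Rpl or Rps followed by a number, with Rpsa, Rplp0, Rplp1 and Rplp2), without S6 kinases and named pseudogenes. They were 82 of the 12027 rows of the count table, 34 with small subunit and 48 with large subunit symbols. The symbols also took in the paralogs Rpl22l1, Rpl36al, Rpl7l1, Rps27l and Rps27rt, and Rps19bp1, which encodes a protein that binds Rps19 and is no ribosomal protein. Another 11 annotated names that match, among them Rpl24, Rpl3l, Rpl10l, Rpl39l and Rps4l, had no row and were not analysed here.

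Poly(A) RNA was sequenced from whole liver of C57BL/6 males aged 8 weeks that had undergone partial hepatectomy (PHX), in which several liver lobes are cut away and the remnant regrows. OGT-KO mice (OGT-/y) lacked, in hepatocytes, the transferase that puts O-GlcNAc, a single sugar, onto proteins, and OGA-KO mice (OGA-/-) lacked the enzyme that removes it; the controls were OGTfl/y and OGAfl/fl mice. What drove the deletion in hepatocytes is not given in the sources used here. The 6 libraries, each the pooled RNA of 3 mice, were OGA-KO and OGA control, both at 14 and at 28 days after PHX, and the OGT pair, sampled at 28 days. With 1 library per group there is no spread between replicates to hold a difference against. Ranges after a log2 ratio are 95% counting intervals, which cover counting error only and no difference between pools. They take each read as a separate molecule. As amplified reads with no molecular tag are not, the intervals can be too narrow even for counting error.

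Library totals ran from 20433100 to 29327722 counts. CPM below are counts per 1000000 of effective library size, which is the library total times edgeR's TMM factor for RNA composition. That factor was 0.900 to 0.925 in the OGA libraries, 1.06 in OGT control and 1.37 in OGT-KO, so the scaling matters most for the OGT pair, where library totals alone moved the median log2 ratio of all rows from 0.00 to 0.36. Hepatocyte markers (10 of 10 with a row, none at 0) summed to 97080 to 108875 CPM in 5 libraries and to 63373 CPM in OGT-KO.

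With TMM scaling, the summed level of the 82 genes separated the libraries by line first and by knockout second. OGT control was lowest, at 8126 CPM, and OGT-KO next, at 9520 CPM. The OGA controls stood at 12433 CPM at 14 days and 12048 CPM at 28 days, and the OGA-KO libraries above both, at 13744 and 13293 CPM. As a plain share of all counts, without the composition factor, the set held 0.858% of counts in OGT control (0.855 to 0.862), 1.15% and 1.09% in the OGA controls, 1.27% and 1.20% in OGA-KO, and 1.30% in OGT-KO (1.30 to 1.31), which was then the highest of the 6. The place of OGT-KO among the OGA libraries therefore turned with the scaling, while OGT control was lowest and each knockout stood above its own control under both.

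**Figure D1:**
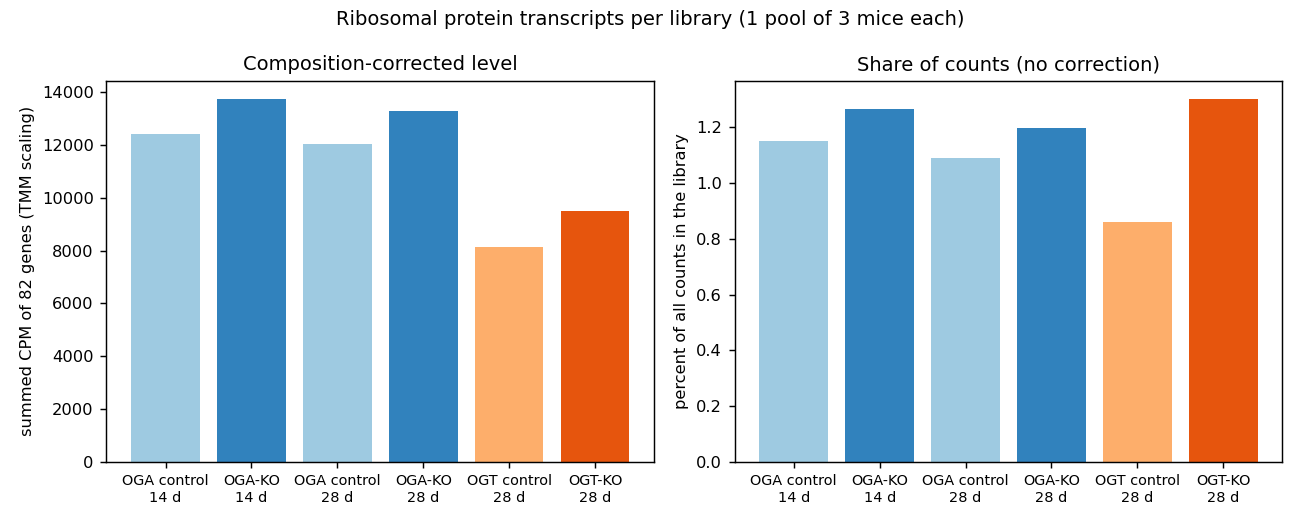
Bars give the summed CPM of the 82 genes with TMM scaling (left) and their percent of all counts (right) in each library; each library is 1 pool, so there are no error bars. OGT control is lowest in both panels, and OGT-KO moves from 9520 CPM, below every OGA library, to the highest share, 1.30%.

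All 82 genes had at least 1 CPM in every library. Levels between genes are compared per kilobase of the shortest well-supported principal transcript (mouse annotation GENCODE M21), as the mean over the 6 libraries. The median was 170 CPM per kilobase (middle 50% of genes 118 to 236), and 67 genes lay within 2-fold of it. Rplp1, a stalk protein, was highest at 733 CPM per kilobase, followed by Rps2 at 442. Rplp2, also of the stalk, stood at 152, below the median. The lowest were Rps10 at 2.19, Rpl36al at 3.70, Rps27rt at 7.78 and Rpl13a at 9.50. These levels depend on how reads that match several copies were counted, which is not given in the sources used here: 80 of the 82 transcripts share at least 1 word of 50 bases with another annotated gene, and 45 have under 50% of such words to themselves (48.2% for Rps10, 9.89% for Rps12). Values of single genes are uncertain on this account. The median log2 ratio in OGT-KO was 0.25 for the 45 genes under 50%, 0.26 for the 30 genes from 50 to 90% and 0.24 for the 7 genes above 90%.

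The pyrimidine-rich start was more frequent among the annotated starts of these genes than among others, though most of them did not hold the run searched for. Promoter sequences from RefSeq (GRCm38.p6, 300 bases, 250 before and 50 after the annotated start) were found for 62 of the 82 genes. A C followed by at least 7 more C or T, beginning within 10 bases of the start on the sense strand, was present in 24 of these 62 (38.7%), against 10.4% of the 9523 table genes with a promoter entry and 9.43% of all 27025 genes in the promoter table. The word CCGGAAG, on either strand and anywhere in the 300 bases, was present in 25 of 62 (40.3%), against 20% of the table genes and 9.93% of all. A match is a description of these letters only, and annotated starts can lie some bases off the true start. The windows below run from 10 bases before to 20 after the start, with the pyrimidine run in capitals; the first 3 belong to genes among the highest in OGT-KO, the next 3 to genes low or near the middle there, and the last to a gene high in OGT-KO without such a run.
Rps12: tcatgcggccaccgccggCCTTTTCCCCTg
Rpl38: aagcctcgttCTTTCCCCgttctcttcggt
Rpl35: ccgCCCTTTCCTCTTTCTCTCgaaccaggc
Rpl15: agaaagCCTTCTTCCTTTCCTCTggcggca
Rps6: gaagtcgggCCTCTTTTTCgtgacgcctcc
Rplp2: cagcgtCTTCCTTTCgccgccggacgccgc
Rpl12: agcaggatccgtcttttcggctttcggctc
On GRCm38.p6 these are chr10:23787190-23787219 (minus strand) for Rps12, chr11:114668570-114668599 (plus) for Rpl38, chr2:39005112-39005141 (minus) for Rpl35, chr14:18270967-18270996 (minus) for Rpl15, chr4:86857348-86857377 (minus) for Rps6, chr7:141447641-141447670 (plus) for Rplp2 and chr2:32961702-32961731 (plus) for Rpl12. Rpl15, with the 17-base run, stood near the bottom of the set in OGT-KO, and Rpl12, without a run, near the top. Over the 62 genes the median log2 ratio in OGT-KO was 0.22 for the 24 with a run and 0.23 for the 38 without; in OGA-KO it was 0.15 and 0.16 at 14 days and 0.17 and 0.15 at 28 days.

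The OGA-KO pairs address what loss of the O-GlcNAc-removing enzyme changes in the regrowing liver. Ribosomal protein transcripts were slightly higher in OGA-KO at both times, by nearly the same amount and almost all together. The summed ratio was 1.11-fold at 14 days (log2 0.14, 0.14 to 0.15) and 1.10-fold at 28 days (log2 0.14, 0.13 to 0.15). The median log2 ratio over members was 0.16 (middle 50% 0.10 to 0.21) at 14 days and 0.16 (0.12 to 0.20) at 28 days, beside 0.00 for all rows at either time. The middle 50% of all rows ran from -0.12 to 0.12 and from -0.15 to 0.16, so the members were packed more closely than genes in general. They were also counted more deeply, with a median of 135 to 155 CPM in the OGA libraries against 18.5 to 18.7 CPM for all rows. Thinly counted genes carry more counting error, and genes of equal depth were not compared. The same limit holds for the 1.5-fold shares of all genes given below. A log2 ratio above 0 was seen in 76 members at 14 days (50.3% of all rows) and 78 at 28 days (50.8%). OGA-KO was above its control at both times for 73 members, as it was for 31.7% of all rows.

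**Figure D2:**
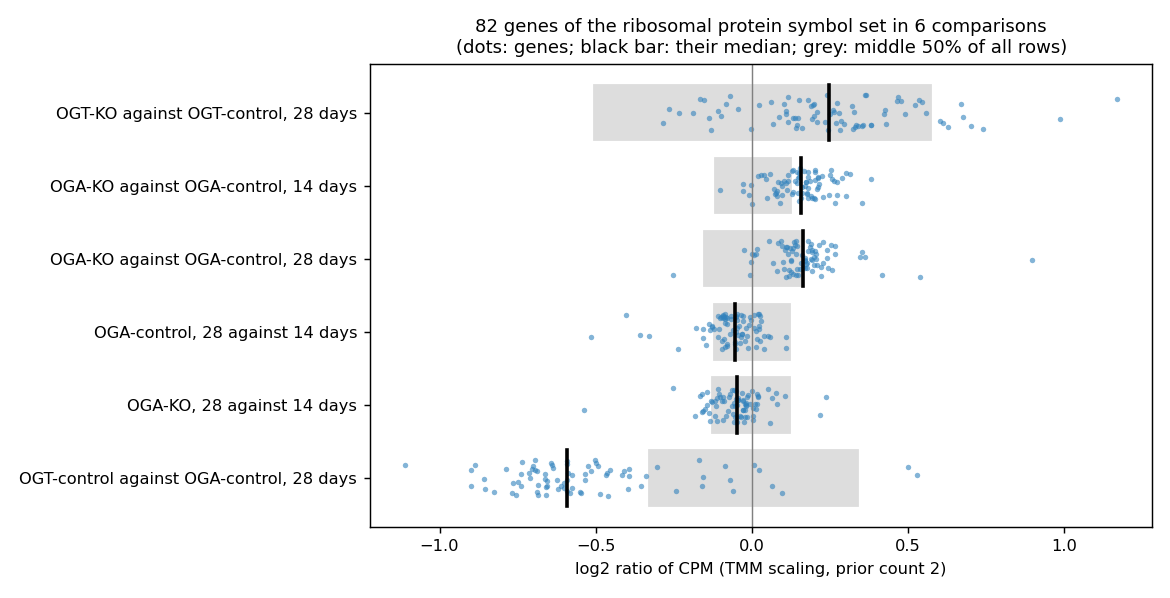
Each dot is 1 of the 82 genes, on a horizontal axis of the log2 ratio of CPM with TMM scaling; the black bar is their median and the grey box the middle 50% of all 12027 rows. In both OGA-KO pairs the dots gather near 0.16, and between the controls of the OGT and OGA lines near -0.59.

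Both OGA-KO libraries lay above both OGA controls for 71 of the 82 genes, a pattern that 22.6% of all rows showed, and 0 members lay below both, against 21.8% of all rows; by library totals these counts were 65 (21.3% of all rows) and 0 (22.1%). The members move together and are not independent observations. No single gene passed the test: edgeR's quasi-likelihood fit over all 6 libraries called 0 of 82 members for OGA-KO (smallest adjusted p = 0.267), where it called 3 genes higher (0.0249% of all tested) and 1 lower (0.00831%) over the whole table. At an unadjusted p under 0.05 it had 28 members higher, against 7.46% of all genes, and 0 lower, against 5.52%. Members under that p numbered 30 with DESeq2 size factors in edgeR and 31 in a fit of the 4 OGA libraries alone. That unadjusted count was 21 by library totals and 2 to 17 when an OGA library and, with it, the day term were left out (2 without OGA control of 28 days), and 0 without the term for mouse line. Called members numbered 0 by library totals too (0.0166% of all genes higher, 0.00832% lower), and 0 by the DESeq2 Wald test (0.34% higher, 0.149% lower), which had 1 at an unadjusted p under 0.05. By size, 0 members were at least 1.5-fold higher at 14 days (2.79% of all genes were) and 1 at 28 days (Rps10, 5.0%), and 0 were 1.5-fold lower at either time (1.84% and 3.55%). From the median of the set, 0 and 1 members (Rps10) lay over 1.5-fold away, where 4.61% and 8.52% of all genes lay that far from the median of all rows.

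Within the set, differences between members in the OGA-KO pairs were small. By the mean of both times the highest were Rps10 (log2 0.38 and 0.90 at 14 and 28 days), Rpl13a (0.30 and 0.54), Rps27rt (0.29 and 0.42), Rps27a (0.27 and 0.36) and Rpl36al (0.27 and 0.35). All but Rps27a of these had under 50 CPM on average: Rps10, a small subunit protein at the messenger entry side, had 71 and 49 counts in OGA-KO and control at 14 days and 65 and 36 at 28 days. Rps27a, which is made as a fusion with ubiquitin, is abundant. It had 156.2 and 129.9 CPM in OGA-KO and control at 14 days (log2 0.27, 0.20 to 0.33) and 147.5 and 114.7 CPM at 28 days (0.36, 0.29 to 0.43), with both knockout values above both control values. The lowest by that mean were Rpl7l1 (-0.03 and 0.00), Rplp0 (0.04 and -0.03), Rpl15 (0.05 and 0.01), Rpl18 (0.06 and 0.00) and Rps3a1 (0.31 and -0.25). Rplp0, the scaffold of the stalk, stayed between 349.2 and 360.3 CPM in all 4 OGA libraries, a range that holds both its knockout and its control values.

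**Figure D3:**
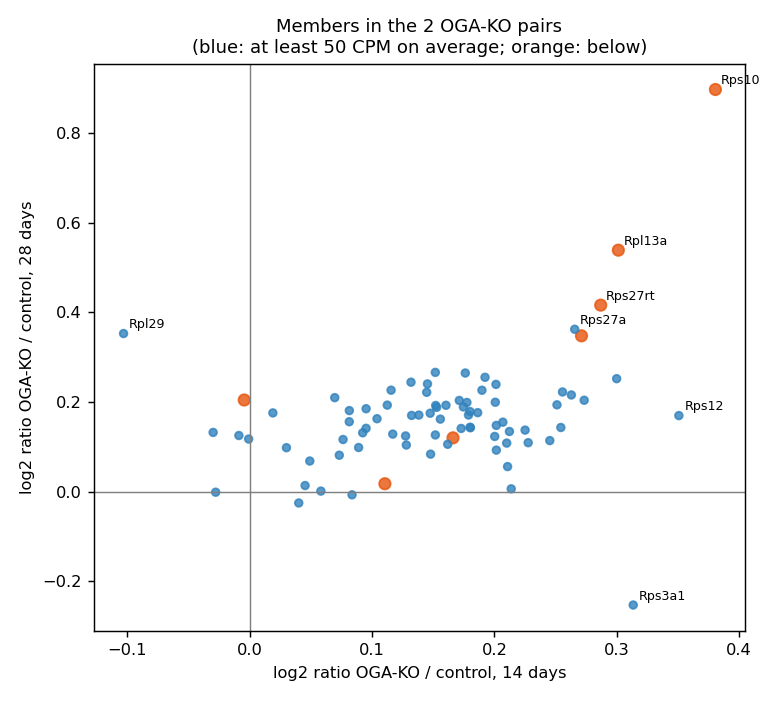
Each point is 1 of the 82 genes, with its log2 ratio of OGA-KO to control at 14 days (horizontal) and 28 days (vertical); blue points are the 75 genes with at least 50 CPM on average and orange points the 7 below. Most points sit above 0 on both axes, Rps3a1 lies below 0 at 28 days only and Rpl29 below 0 at 14 days only.

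The order of members was compared between the pairs, which have no library in common. As a description across the 82 genes, which share their libraries and depth, the 14 and 28 day ratios had a Pearson's r of 0.35 and a Spearman's rho of 0.32, and 0.09 and 0.23 over the 75 genes with at least 50 CPM on average. Beside these results, some marker lists of other cells also differed in the same pairs: 10 stellate cell and matrix markers had a median log2 ratio of 0.46 at 14 days and 0.21 at 28 days (summed 240.8 against 174.6 CPM and 183.1 against 168.8 CPM), and 7 cholangiocyte markers 0.46 and 0.31 (84.4 against 68.7 CPM and 81.8 against 80.7 CPM). Macrophage markers had a median of 0.02 and 0.30 (230.9 against 215.4 CPM and 250.4 against 202.0 CPM), and 9 cell division genes -0.17 and -0.75 (16.5 against 18.5 CPM and 14.8 against 21.1 CPM). Medians were 0.09 and -0.02 for endothelial markers, 0.04 and -0.08 for hepatocyte markers and 0.19 and -0.08 for erythroid genes. The 2 lymphocyte markers with a row had 0.17 and 0.32. The 11 pancreas enzyme genes summed to 203.8 CPM in OGA-KO at 28 days and to 5.2 to 29.5 CPM in the other libraries, where 8 or 9 of them were at 0; 2 of them were among the 3 genes that edgeR called higher in OGA-KO. The part of these markers in the higher ribosomal protein level was not tested.

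From 14 to 28 days the set changed little. The summed ratio was 0.969-fold in OGA control (log2 -0.05, -0.05 to -0.04) and 0.967-fold in OGA-KO (-0.05, -0.05 to -0.04), with 0 members past 1.5-fold either way in each; among all genes 2.13% were higher and 1.9% lower in control, and 3.4% and 2.1% in OGA-KO. None lay over 1.5-fold from the median of the set in either (4.04% and 5.52% of all genes from theirs). In OGA control the lowest ratios were of the thinly counted Rps10 (-0.52), Rpl13a (-0.40) and Rps19bp1 (-0.36), and the highest of Rps27rt (0.11), Rps27l (0.11) and Rpl12 (0.06). In OGA-KO the lowest were Rps3a1 (-0.54), Rpl36al (-0.25) and Rpl39 (-0.18), and the highest Rps27rt (0.24), Rpl29 (0.22) and Rps2 (0.11). Rps3a1, a small subunit protein, had 123.3 CPM in OGA-KO at 14 days and 84.8 CPM at 28 days, while the other 4 libraries held 99.2 to 118.1 CPM.

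The OGT-KO pair at 28 days addresses the loss of the enzyme that attaches O-GlcNAc. As a sum, ribosomal protein transcripts were higher in OGT-KO than in its control, by 1.17-fold (log2 0.23, 0.22 to 0.24), and by a log2 of 0.60 by library totals. The median over members was 0.25 (middle 50% 0.11 to 0.38) beside 0.00 for all rows, whose middle 50% ran from -0.50 to 0.57. A log2 ratio above 0 was seen in 68 members, against 50.2% of all rows, and below 0 in 14. By library totals it was above 0 in all 82 members, but the median of all rows was then itself 0.36. At least 1.5-fold higher were 9 members, or 11%, against 24.8% of all genes, and 0 were 1.5-fold lower, against 22.2%; by library totals the same rule had 44 members higher (38.7% of all genes) and 0 lower (12.6%). Free of any scaling, 2 members (Rpl36al and Rps12) lay more than 1.5-fold from the median of the set, whereas 47.0% of all genes lay that far from the median of all rows.

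**Figure D4:**
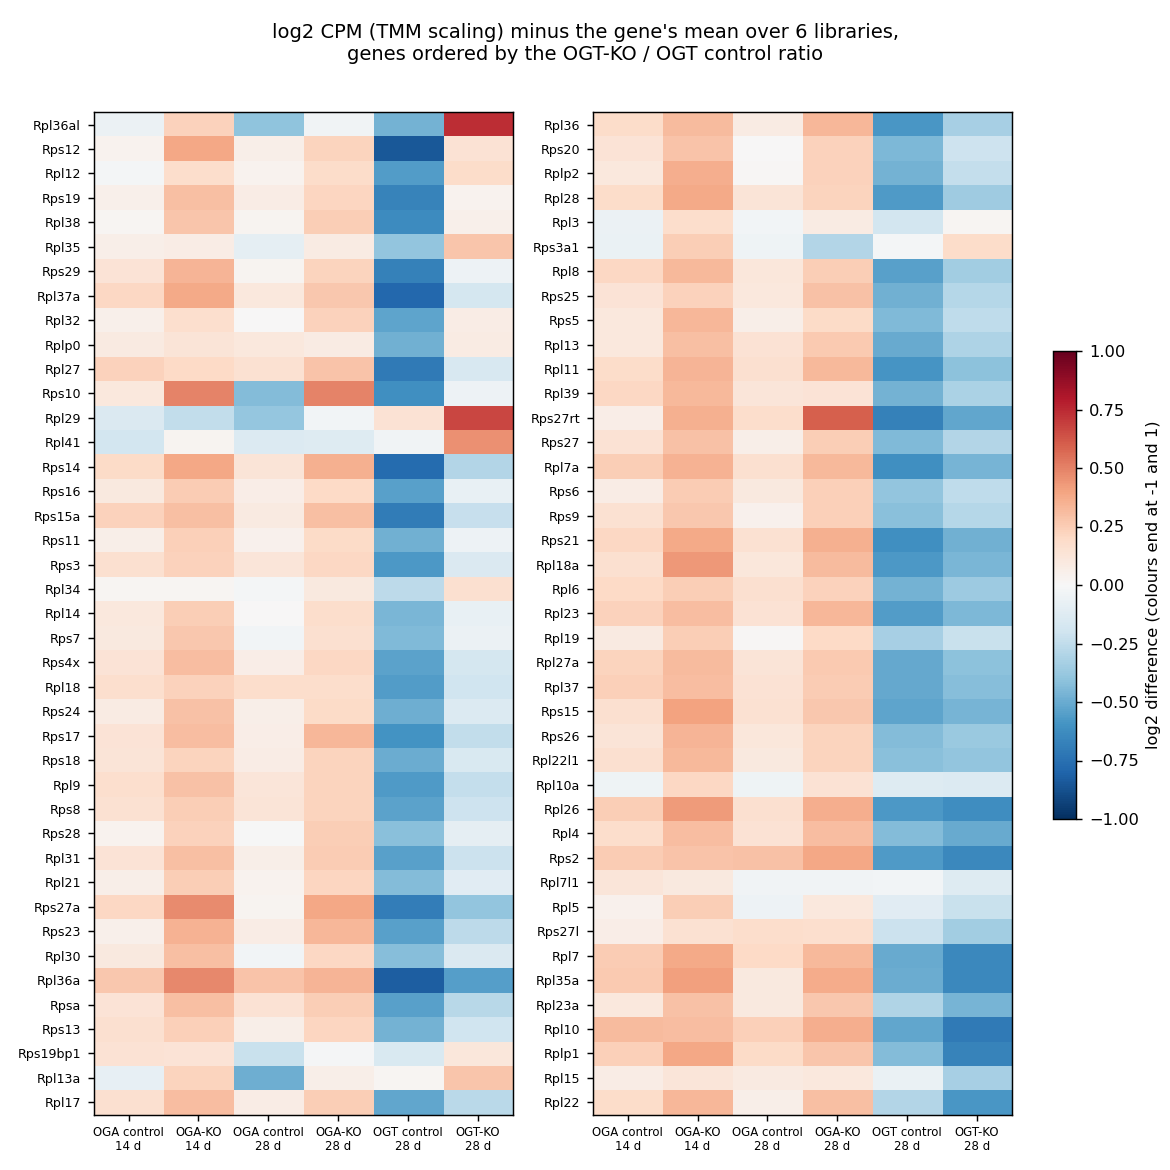
Each row is 1 of the 82 genes, ordered by its OGT-KO to OGT control ratio from top left to bottom right, and each column a library; colour is the log2 CPM (TMM scaling) minus the gene's mean over the 6 libraries. The OGT control column is blue in nearly every row, the OGA-KO columns are redder than their controls in most rows, and Rpl29, Rpl41 and Rpl36al are red in OGT-KO.

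By edgeR, 31 of 82 members rose in OGT-KO (37.8%, 15 small and 16 large subunit genes) and 0 fell, where 26.1% of all genes tested rose and 26.6% fell. The OGT groups, with no second library, are taken in this test to vary as much as the OGA groups do. It called 67 members by library totals (44.4% of all genes higher, 15.5% lower) and 18 when OGA control of 14 days or that of 28 days was left out together with the day term. Without the term for mouse line, which sets OGT-KO against the controls of both lines together, it called 0 (13.4% higher, 11.8% lower) and the median log2 value of the members turned to -0.10; the DESeq2 Wald test called 8 (10.3% higher, 14.3% lower), namely Rps12, Rpl12, Rplp0, Rps29, Rpl35, Rps19, Rpl32 and Rpl37a. At an unadjusted p under 0.05 edgeR had 37 members higher, against 29.4% of all genes, and 2 lower, against 29.8%.

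The members that stood highest in OGT-KO came from both subunits. Rps12 (ENSMUSG00000061983), a small subunit protein, had 169.2 CPM in OGT-KO and 85.4 CPM in OGT control, with 157.0 and 159.4 CPM in the OGA controls and 200.2 and 179.2 CPM in OGA-KO. OGT control was the low library here, and with TMM scaling OGT-KO lay within the range of the OGA libraries. Its log2 ratio in OGT-KO was 0.99 (0.91 to 1.06), with an edgeR adjusted p = 0.00167, or 0.446 when mouse line was no term. Rpl12, of the stalk base, had 163.6 CPM in OGT-KO, 98.0 CPM in OGT control and 141.9 to 163.7 CPM in the OGA libraries, a log2 ratio of 0.74 (0.67 to 0.81), with edgeR adjusted p = 0.00271 and, line left out, 0.378. Rps19, a small subunit assembly protein that is mutated in Diamond-Blackfan anaemia, had 75.8 CPM in OGT-KO, 46.6 CPM in OGT control and 76.5 to 91.3 CPM in the OGA libraries (log2 0.70, 0.60 to 0.81). With TMM scaling, OGT control stood apart from the other 5 libraries for these 3 genes. By library totals OGT control was still the lowest, but OGT-KO then lay above every OGA library for each of them. Rpl38 (0.67), Rpl35 (0.67), Rps29 (0.63) and Rpl37a (0.61) followed. Rpl36al, the autosomal relative of the X-linked Rpl36a, had the highest ratio (1.17, 0.61 to 1.86) from 87 and 31 counts.

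**Figure D5:**
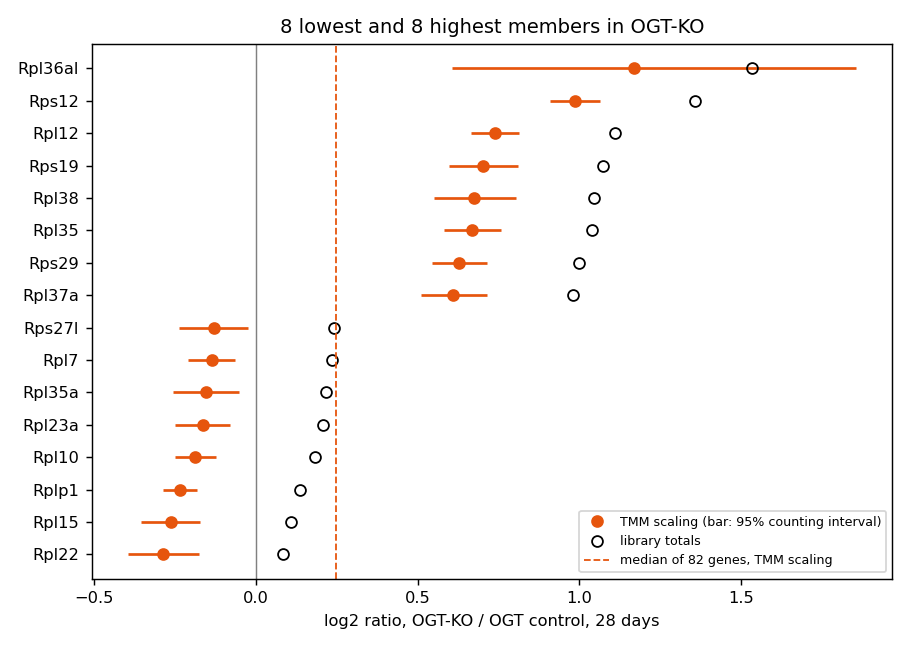
The horizontal axis is the log2 ratio of OGT-KO to OGT control for the 8 highest and 8 lowest members; filled points use TMM scaling with 95% counting intervals as bars, and open circles library totals. All 8 lowest members lie below 0 with TMM scaling and above 0 by library totals, and the highest, Rpl36al, has the widest interval.

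The lowest members in OGT-KO were Rpl22 (log2 -0.29, -0.39 to -0.18), Rpl15 (-0.26), Rplp1 (-0.23), Rpl10 (-0.19), Rpl23a (-0.16), Rpl35a (-0.15), Rpl7 (-0.14) and Rps27l (-0.13). By library totals each of these was above 0, from 0.09 to 0.24, beside a median of 0.36 for all rows. None passed edgeR (adjusted p = 0.0596 for Rpl22). Rpl22, an RNA-binding large subunit protein that the ribosome can do without, had 49.2 CPM in OGT-KO, 60.0 CPM in OGT control and 76.7 to 92.4 CPM in the OGA libraries, so both OGT libraries lay below all OGA libraries. Of the most abundant members, Rps2 had 270.1 CPM in OGT-KO and 286.3 CPM in control, Rpl4 294.0 and 308.8 CPM, and Rpsa, also known as the laminin receptor, 305.2 and 253.0 CPM. Rps6, the substrate of the S6 kinases, had 110.4 and 100.2 CPM, and Rpl5 and Rpl11, which with 5S RNA bind Mdm2, 134.4 and 145.0 CPM and 145.9 and 128.8 CPM. None of these 6 genes passed edgeR.

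Ratios between genes of the same library do not depend on the scaling and were compared for the stalk and for the paralogs. The stalk joins Rplp0 to pairs of the small acidic proteins Rplp1 and Rplp2. Counts of Rplp1 were 1.28 times those of Rplp0 in OGA-KO and 1.19 times in control at 14 days, 1.22 and 1.13 times at 28 days and 1.11 times in OGT control (1.07 to 1.15), but 0.638 times in OGT-KO (0.618 to 0.659). OGT-KO was the only library with fewer Rplp1 than Rplp0 counts. Rplp2 counts were 0.350 times those of Rplp0 in OGT-KO (0.336 to 0.364) and 0.408 to 0.514 times in the other libraries. In CPM, Rplp0 had 348.4 in OGT-KO and 236.6 in OGT control, and Rplp1 222.3 and 261.5; Rplp0 rose by edgeR (log2 0.56, adjusted p = 0.00706, but 0.65 with line left out) and Rplp1 did not pass (adjusted p = 0.102).

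Paralogs were compared in the same way with the core gene that each resembles, whether or not their proteins can replace each other. Rpl22l1 counts were 0.204 times those of Rpl22 in OGT-KO (0.179 to 0.232) and 0.165 times in OGT control (0.142 to 0.190), with 0.170 to 0.184 times in the OGA libraries, so that the counting intervals of the OGT pair overlapped. Rps27l, a p53 target, was at 0.824 times Rps27 in OGT-KO and 0.999 times in OGT control, and 0.774 to 0.927 times in the OGA libraries. Rpl7l1 was at 0.463 and 0.452 times Rpl7 in the OGT pair and 0.253 to 0.297 times in the OGA libraries, which sets the lines apart rather than knockout from control. Rpl36al was at 0.0770 times Rpl36a in OGT-KO (0.0612 to 0.0958) and 0.0403 times in OGT control (0.0272 to 0.0576). In the OGA libraries it was at 0.0196 to 0.0264 times, below both OGT libraries.

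With TMM scaling, the summed level differed most, of the 6 comparisons made, between the controls of the OGT and OGA lines at 28 days. By library totals it differed most in the OGT-KO pair, but library totals also moved all rows. The median over members was then 0.62 in the OGT-KO pair, beside 0.36 for all rows. Between the control lines it was -0.37, beside 0.22 for all rows. The 82 genes summed to 0.674-fold in OGT control (log2 -0.57, -0.58 to -0.56), and to a log2 of -0.34 by library totals. With TMM scaling the median over members was -0.59 (-0.69 to -0.42 for the middle 50%). Below 0 were 76 members and above 0 were 6, where 50.0% of all rows were above 0. At least 1.5-fold lower were 44 members, or 53.7%, against 13.8% of all genes, and 0 were higher, against 13.3%; by library totals 7 were lower (8.36% of all genes) and 2 higher (23.8%). From the median of the set, 6 members lay over 1.5-fold away, all on the higher side, against 27.1% of all genes from theirs. OGT control lay below all 4 OGA libraries for 76 members (37.7% of all rows) and by library totals for 70 (23.4%). The lowest ratios were of Rpl36a (-1.11, -1.23 to -0.99), Rps12 (-0.90) and Rps14 (-0.90). Of the 6 members above 0, the highest were Rpl29 (0.53, 0.44 to 0.62), Rpl13a (0.50) and Rpl41 (0.10). Rpl29, a heparin-binding large subunit protein, had 99.3 CPM in OGT control and 142.5 CPM in OGT-KO, and 68.8 to 87.9 CPM in the OGA libraries, so both OGT libraries lay above all others. Mouse line, and any difference in handling of the pools, cannot be told apart here. The OGT-KO comparison shares its OGT control library with this one: OGT-KO lay above OGT control and yet below all 4 OGA libraries for 54 members (6.19% of all rows), but for 14 by library totals (3.12%). OGT-KO was below all 4 OGA libraries for 68 members (43.2% of all rows) and above all 4 for 6 (43.0%), whereas by library totals these counts were 14 (21.6%) and 47 (68.6%).

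Other genes of the translation machinery did not all follow the set. Their counts of genes that rose or fell by edgeR stand beside 26.1% and 26.6% of all genes tested. Fau and Rack1, ribosome parts with other symbols, both rose in OGT-KO by edgeR (log2 0.52 and 0.42) and stood at -0.77 and -0.60 in OGT control against OGA control. In OGA-KO their log2 ratios were 0.20 and 0.13 at 14 days and 0.10 and 0.04 at 28 days. Of 18 translation factor and related genes with TOP messengers 7 rose in OGT-KO and 2 fell (median 0.19, and 0.56 by library totals), with Eef1b2 at 0.72 and Eif3h at 0.56 but Eif4b at -0.86 and Eef1a1 at -0.57. In OGA-KO 15 of 18 were above 0 at each time (median 0.09), against 50.3% and 50.8% of all rows. Of 25 other initiation, elongation and release factors 2 rose and 6 fell in OGT-KO (median -0.08, and 0.29 by library totals), the latter close to the share of all genes, with Eif6, which keeps the subunits apart, at 0.85 and Eif4a2 at -0.70.

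The 77 mitochondrial ribosomal protein genes, also nuclear and short, went the other way in OGT-KO with TMM scaling: 3 rose and 36 fell, beside 26.1% and 26.6% of all genes (median -0.35, and 0.02 by library totals), with Mrpl24 at -1.34 and Mrps5 at -1.18. Their median was -0.02 and 0.02 in the OGA-KO pairs and 0.00 between the control lines (0.22 by library totals). Of 51 ribosome biogenesis genes 12 rose and 5 fell in OGT-KO (median 0.10, and 0.47 by library totals), shares below those of all genes, among them Rrp1b (1.03), Taf1d (0.82) and Riok1 (0.81) against Nop10 (-1.26); their median was 0.26 between the control lines, where the ribosomal proteins stood at -0.59, and -0.08 and 0.05 in OGA-KO at 14 and 28 days. Of 25 genes of mTOR and TOP control 6 rose and 4 fell in OGT-KO (median -0.07, and 0.30 by library totals), again below the shares of all genes, with Ddit4, an mTOR inhibitor, at 1.38 and Deptor, another, at -2.01. Of 10 genes of p53 and ribosomal stress 7 rose and 0 fell (median 0.76, and 1.13 by library totals), beside the same 26.1% and 26.6% of all genes, led by Phlda3 (3.48) and Cdkn1a (1.79). In OGA-KO edgeR called 0 genes in each of these lists.

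Markers of other cell types and of dividing cells moved with the OGT-KO pair. Summed over the list they went from 277.0 to 2386 CPM for 10 stellate cell and matrix markers (10 rose), 367.4 to 1372 CPM for 10 macrophage markers (10 rose), 100.9 to 495.3 CPM for 7 cholangiocyte markers (6 rose) and 31.0 to 227.1 CPM for 9 cell division genes (9 rose), with none at 0, while 7 of 10 hepatocyte markers fell. Of all genes tested, 26.1% rose and 26.6% fell. The 10 endothelial markers summed to 256.2 and 274.7 CPM and the 5 erythroid genes to 187.9 and 57.6 CPM in OGT control and OGT-KO. The part of these cells in the ribosomal protein levels was not tested; in whole liver, fewer cells of a type and less RNA per cell cannot be told apart. Between the control lines, stellate and matrix markers summed to 277.0 CPM in OGT control and 168.8 CPM in OGA control, macrophage markers to 367.4 and 202.0 CPM and hepatocyte markers to 97080 and 105128 CPM.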

How the data were processed

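Liver mRNA of 6 pools was sequenced, with 2 lanes per pool and a target of 25 M reads per the labels. The deposited count table holds raw counts per Ensembl gene; the submitters' processing notes name STAR, Subread, edgeR and the build mm39, without versions or settings. The deposited CPM table was used only to check the counts: its divisors equal the column totals in the OGA libraries but not in OGT control (21875596 against 21852873) and OGT-KO (20591467 against 20433100). Its row filter is not stated. Symbols came from GENCODE M21 (12019 of 12027 identifiers), whose build differs from mm39. The only positions given are those of the promoter windows, on GRCm38.p6. Log2 ratios used TMM scaling from all 6 libraries and a prior count of 2 (R 4.3.3, edgeR 4.0.16); size rules asked for 1.5-fold and 1 CPM in the higher library. Intervals are exact Clopper-Pearson. edgeR's quasi-likelihood model held an intercept and terms for day, mouse line, OGA-KO and OGT-KO, which left 1 residual degree of freedom, with filterByExpr (12027 genes tested) and Benjamini-Hochberg adjustment at 0.05; "rose" and "fell" are kept for it. DESeq2 1.42.0 was an alternative. Genes were named by rule: the 8 highest and 8 lowest in OGT-KO, 5 and 5 in OGA-KO, 3 and 3 elsewhere, the most abundant, the stalk, paralogs, a few well-known members and up to 4 per other list. Members and lists were chosen with earlier results of these data known. 1 item of the gene lists is not reported here.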

Additional observations from a re-analysis of the deposited data

Results flagged for a closer look

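Rps3a1 and Rpl29 differed in direction between the OGA-KO pairs, with counting intervals on opposite sides of 0; the difference between the times was not tested, as each pair is 1 library against 1. Rps3a1 had a log2 ratio of 0.31 (0.24 to 0.39) at 14 days and -0.25 (-0.34 to -0.17) at 28 days, from 3331 against 2430 and 2098 against 2647 counts. Rpl29 had -0.10 (-0.19 to -0.01) at 14 days and 0.35 (0.26 to 0.44) at 28 days, from 2041 against 1988 and 2173 against 1801 counts. Both messengers share most of their 50-base words with other annotated genes: 29% of the words of Rps3a1 and 33.4% of those of Rpl29 were found in no other gene.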

How the results depend on the processing

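No paired analysis was possible because the labels carry no replicate numbers that join libraries of different groups. By library totals, the summed and median log2 ratios were 0.60 and 0.62 in OGT-KO, -0.079 and -0.086 between the OGA controls, -0.082 and -0.082 between the OGA-KO libraries, and -0.34 and -0.37 between the control lines, with 44 members past 1.5-fold in OGT-KO and 9 between the control lines. By DESeq2 size factors they were 0.16 and 0.17 in OGA-KO at 14 days and -0.035 and -0.042 between the OGA controls. No summed or median ratio changed sign under these scalings. The median of all rows by library totals was 0.36 in OGT-KO and 0.22 between the control lines. At 2-fold, 1 member passed in OGT-KO, 0 in OGA-KO at 28 days and 1 between the control lines; from the median of the set, 0, 0 and 2 lay that far. Without paralogs, Rps27rt and Rps19bp1, or with at least 50 CPM on average, 1 member in OGT-KO lay over 1.5-fold from the set's median, and with 50 CPM 0 did in OGA-KO at 28 days, where 0 were 1.5-fold different. For OGT-KO, members past the test numbered 67 by library totals, 0 without the line term and 8 by DESeq2, and 18 to 31 when an OGA library was left out together with the day term: 18 without OGA control of 14 days and 18 without that of 28 days. For OGA-KO the count was 0 in each alternative fit. Counting limits the members under 50 CPM; the lack of replicate pools limits the rest.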
